A study of Homo sapiens with 4 samples.

Results

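The 10 genes described here are the ferritin subunits FTH1 and FTL and 8 genes that control how much iron a human cell takes up, stores and releases: TFRC, SLC11A2, ACO1, IREB2, FBXL5, PCBP1, PCBP2 and NCOA4. They were chosen by gene symbol from the 20323 genes of the deposited count files, and a symbol with several rows was to be represented by the row with the largest summed count. Each of the 10 symbols had 1 row, so no measured value decided the choice of a row. All 10 were among the 12560 genes that passed a filter on low counts.

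The counts are ribosome footprints, the stretches of message protected from RNase by a ribosome, from 5-FU-resistant HCT-8 cells. HCT-8 is a human colorectal adenocarcinoma line, and the form used here is resistant to the pyrimidine analogue 5-fluorouracil (5-FU). In the OE group the cells were transfected with METTL14 overexpression plasmids, and in the NC group with negative control plasmids. METTL14 works with METTL3, the catalytic subunit, in the enzyme that places N6-methyladenosine on messages. All cells were exposed to 100 ug/mL cycloheximide, which holds ribosomes in place, and each group has 2 libraries from independent experiments. METTL14 was expressed from a plasmid, and the labels used here give neither its promoter nor the share of cells that took it up. The comparison of OE with NC asks which of these messages carry more or fewer footprints when METTL14 is overexpressed. A footprint count reflects how much message there is as well as how well it is translated. Total RNA was not analysed here, so these cannot be told apart. In such bulk libraries, fewer cells of a type and less RNA per cell also cannot be told apart.

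Cells keep free iron low by setting uptake against storage. Ferritin is a hollow shell of heavy (FTH1) and light (FTL) chains that holds iron as a mineral. Its messages carry a hairpin called the iron-responsive element in the leader, ahead of the coding sequence. When iron is scarce, the iron regulatory proteins ACO1 and IREB2 bind this hairpin and stop the ribosome from loading. The message of the transferrin receptor TFRC carries such hairpins behind its coding sequence, where the same proteins protect it from decay. Textbook regulation by iron therefore moves ferritin synthesis and TFRC in opposite directions.

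The FTL hairpin is shown here because FTL and FTH1 carried the largest differences of the 10 genes. It lies at chr19:48965333-48965358 on the plus strand of GRCh38.p14, in the transcribed leader of FTL, and the sequence is from RefSeq. The other hairpin is that of ALAS2, the erythroid enzyme that starts heme synthesis, at chrX:55030942-55030971 on the minus strand. The capitals mark the unpaired C and the 6-base loop, and the FTL stretch ends where the RefSeq window ends.
FTL: gtctcttgCttcaaCAGTGTttggac
ALAS2: cattcgttCgtcctCAGTGCagggcaacag
The C, any 5 bases and the loop (CNNNNNCAGTGN) were searched on the sense strand in the first 50 transcribed bases of 35116 RefSeq windows. They occurred in 586 windows, or 1.67%, and in 1.66% on the opposite strand. With 5 paired bases around the loop as well, G with T counted as a pair, 8 windows (0.0228%) matched, among them FTL and ALAS2. Windows were available for 9 of the 10 genes (all but FTH1), and of those only FTL matched. Of the other messages with an iron-responsive element described below, 5 had a window and 1, ALAS2, matched. EPAS1, which has a leader hairpin, had no match in the bases searched. A lack of a match therefore does not show that a message lacks the hairpin. The hairpins of TFRC and SLC11A2 lie in the part behind the coding sequence, which was not searched.

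The libraries held 7742274 and 24392875 counts in OE and 21846389 and 18707758 in NC. The OE libraries differed from each other more than the NC libraries did. The standard deviation of the log2 difference within a pair was 1.30 for OE and 0.46 for NC over 12560 genes. Levels are given in CPM, counts scaled to a common library size. In OE replicate 1 the 1256 genes with the most NC footprints (in CPM, with no correction for gene length) had a median difference of -1.08 from the NC mean in log2 CPM, and in OE replicate 2 one of -0.08. Values that rest on OE replicate 1 are therefore also given without it. All 8 epithelial markers checked were present, and their summed level was 6275 and 24771 CPM in OE and 21954 and 21321 CPM in NC. The markers did not move together: 1 was higher and 4 were lower in both OE libraries, and 3 overlapped. Among all genes 19.9% were higher and 20.4% lower. The part of these marker differences in the results that follow was not tested. Of the defining markers of other cells, CD3E, CD163, ALAS2 and HAMP had 0 counts in all 4 libraries. The summed fibroblast, erythroid and hepatocyte markers stayed at or below 5.22 CPM in each library. The 6 leukocyte markers summed to 41.7 and 30.6 CPM in OE and to 72.4 and 78.6 CPM in NC, almost all from CD68. METTL14 itself had 448 and 91.2 CPM in OE replicates 1 and 2, against 44.5 and 47.6 CPM in NC, so both OE libraries carried more of it than either NC library. Across all genes OE was tested against NC with edgeR (quasi-likelihood), and p-values were adjusted by Benjamini-Hochberg. For METTL14 this gave a log2 fold change of 2.55 (SE 0.81; edgeR adjusted p = 0.734). Without OE replicate 1 it was 0.99 (edgeR adjusted p = 4.02e-06), and without OE replicate 2 it was 3.24 (edgeR adjusted p = 2.01e-18).

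Footprints on both ferritin messages were far above NC in OE replicate 1 and below NC in OE replicate 2. FTH1 (ENSG00000167996), the heavy chain that oxidises iron for storage, had 5749 and 536 CPM in OE replicates 1 and 2, against 1100 and 1299 CPM in NC. The NC values thus lay between the 2 OE values, and the groups overlapped. OE replicate 1 was 4.79 times the NC mean, whereas the NC mean was 2.24 times OE replicate 2. Counting error alone, as an exact 95% Poisson interval, left 5703 to 5795 CPM for OE replicate 1 and 526 to 545 CPM for OE replicate 2. In NC it left 1085 to 1114 CPM and 1282 to 1316 CPM. None of these intervals meets another, those of the NC libraries included.

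FTL (ENSG00000087086), the light chain that helps nucleate the iron mineral, followed the same order of libraries. It had 2997 and 229.6 CPM in OE, against 483 and 557 CPM in NC. OE replicate 1 was 5.76 times the NC mean, and the NC mean was 2.26 times OE replicate 2. Together the chains took 1.19% and 0.0694% of all footprints in the OE libraries, against 0.141% and 0.169% in NC. The group averages of FTH1 were 3142 ± 3686 CPM in OE and 1199 ± 141 CPM in NC (SD, n = 2 each), and those of FTL 1613 ± 1957 and 520.1 ± 51.9 CPM. In both cases the SD of OE was larger than its mean.

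**Figure D1:**
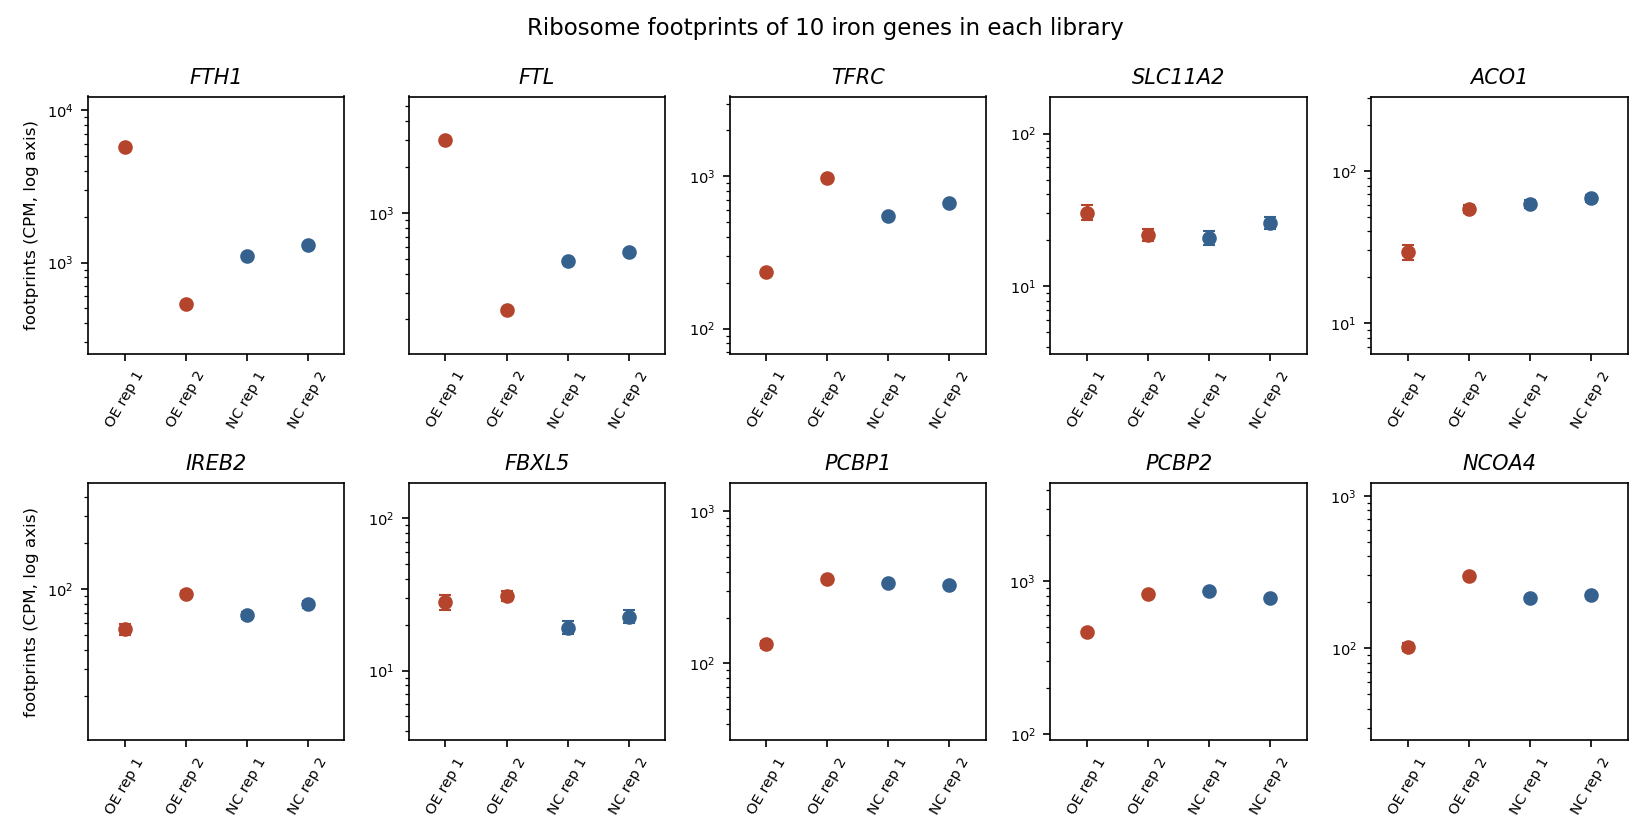
Footprints of the 10 iron genes in the 2 OE libraries (red, left) and the 2 NC libraries (blue, right), in CPM on a log axis that spans the same fold range in every panel. Bars are exact 95% Poisson intervals and are often smaller than the points; FTH1 reads 5749 and 536 CPM in OE and 1100 and 1299 CPM in NC, the widest OE spread beside that of FTL.

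Neither chain passed the test. OE over NC came to 1.39 (SE 1.17; edgeR adjusted p = 0.759) for FTH1 and to 1.63 (SE 1.19; edgeR adjusted p = 0.741) for FTL on the log2 scale. The sign itself rested on OE replicate 1. Without it the values were -1.16 (adjusted p = 3.51e-08) for FTH1 and -1.18 (adjusted p = 2.39e-08) for FTL, and without OE replicate 2 they were 2.22 (adjusted p = 1.64e-15) and 2.49 (adjusted p = 2.66e-16), in the same edgeR test. Those fits take the spread from the NC libraries and assume that a single OE library varies like them. Leaving out either NC library kept both values between 1.24 and 1.67.

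Among genes with many footprints the ferritin chains stood at the edge of OE replicate 1. Of the 1256 genes with the most NC footprints, FTL had the largest log2 difference from the NC mean in that library, at 2.53, and FTH1 the second largest, at 2.27. The median of those genes was -1.08. In OE replicate 2 the differences were -1.18 for FTL and -1.16 for FTH1, the 85th and 92nd lowest of the same 1256 genes. Among all 12560 genes, FTL and FTH1 lay at percentiles 97.5 and 96.3 in OE replicate 1. Their percentiles in the other OE library were 5.43 and 5.63. These ranks describe single libraries.

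**Figure D2:**
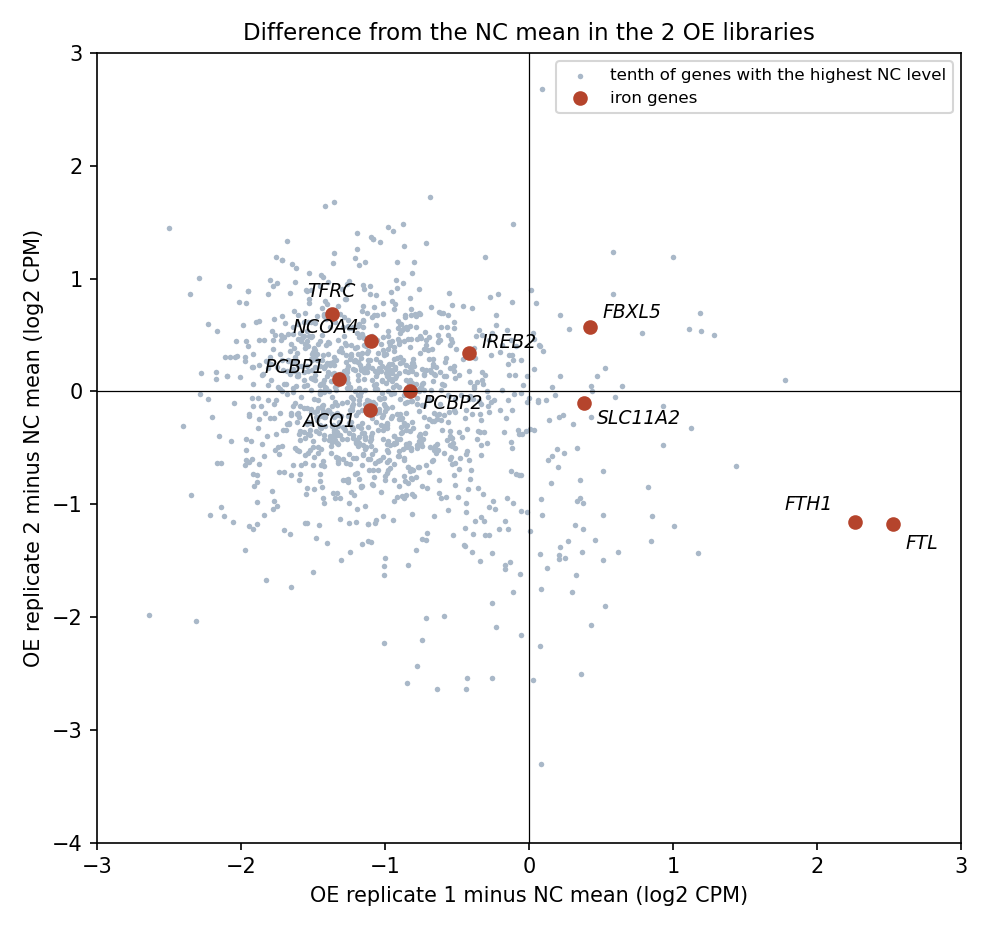
Difference from the NC mean in log2 CPM for OE replicate 1 (x axis) and OE replicate 2 (y axis). Small points are the 1256 genes with the highest NC level in CPM, and red points the 10 iron genes, of which SLC11A2, ACO1, IREB2 and FBXL5 have lower NC levels than those; FTL (2.53 and -1.18) and FTH1 (2.27 and -1.16) lie at the lower right.

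Although both chains spanned a wide range, their proportion varied little. The ratio of FTH1 to FTL counts was 1.92 and 2.33 in OE and 2.28 and 2.33 in NC. On the log2 scale OE minus NC was -0.12 (p = 0.667, two-sided exact permutation test, whose smallest possible p with 2 libraries a group is 0.333). FTH1 was also among the genes whose pattern over the 4 libraries was most like that of FTL. By Euclidean distance between log2 CPM centred on each gene's mean, it was the third of 8978 genes with at least 10 CPM on average, at 0.235, after TAB3 (0.146) and RSC1A1 (0.229). For FTH1 the nearest genes were KIF21B (0.146), BDP1 (0.159) and HIPK2 (0.203), and FTL was the fifth. All these distances rest on the same 4 libraries. FTH1 and FTL have many processed pseudogenes in the human genome. Of ferritin relatives, the rows of FTHL17 and of the mitochondrial ferritin FTMT had 0 counts in every library, and the part of pseudogene reads in FTH1 and FTL was not tested.

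TFRC (ENSG00000072274), the receptor that brings in transferrin-bound iron, had its OE libraries in the opposite order. In NC, replicate 2 was the higher library for TFRC as for both ferritin chains. TFRC had 234 and 972 CPM in OE replicates 1 and 2, against 546 and 667 CPM in NC. OE replicate 1 lay below both NC libraries and OE replicate 2 above both. The NC mean was 2.60 times OE replicate 1, and OE replicate 2 was 1.60 times the NC mean. Averages were 603 ± 522 CPM in OE and 607 ± 85.7 CPM in NC (SD, n = 2 each). Its log2 fold change was -0.0091 (SE 0.77; edgeR adjusted p = 0.998), and 0.13 when only library totals were used for scaling. Without OE replicate 1 it was 0.68 (edgeR adjusted p = 0.00016), and without OE replicate 2 it was -1.42 (edgeR adjusted p = 2.94e-09). In OE replicate 1 the difference of -1.37 was at percentile 29.0 of the 1256 genes with the most NC footprints, whose median was -1.08. In OE replicate 2 the difference of 0.69 was at percentile 91.5. The 3 genes with the pattern most like that of TFRC were ABCE1 (distance 0.15), a ribosome recycling factor, IRGQ (0.164) and VDAC1 (0.167), a channel of the outer mitochondrial membrane.

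The ratio of TFRC to ferritin footprints within a library needs no scaling, and it differed widely between the OE libraries. It does not measure iron uptake or storage. In OE replicate 1 the genes with the most NC footprints had a median log2 difference of -1.08 from the NC mean, against -1.37 for TFRC and 2.27 for FTH1. A low ratio to FTH1 there was therefore not particular to TFRC. In OE replicate 2 that median was -0.08, against 0.69 for TFRC and -1.16 for FTH1. Ratios of other such genes to FTH1 were not tested. The ratio of TFRC to FTH1 counts was 0.0406 and 1.81 in OE replicates 1 and 2, against 0.497 and 0.514 in NC. It was thus 44.7 times as high in OE replicate 2 as in OE replicate 1, while the NC libraries nearly coincided. The NC mean ratio was 12.4 times that of OE replicate 1, and OE replicate 2 was 3.59 times the NC mean. The ratio of TFRC to FTL, added after the data were seen, gave the same order, with 0.0779 and 4.23 in OE and 1.13 and 1.20 in NC. The group means differed by less than the OE spread. The mean log2 ratio of TFRC to FTH1 was -1.88 ± 3.88 in OE and -0.99 ± 0.03 in NC (SD, n = 2 each; two-sided exact permutation p = 1, smallest possible 0.333). Without OE replicate 1 the difference changed sign, with a log2 value of 1.85 in place of the -0.90 over all 4 libraries.

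**Figure D3:**
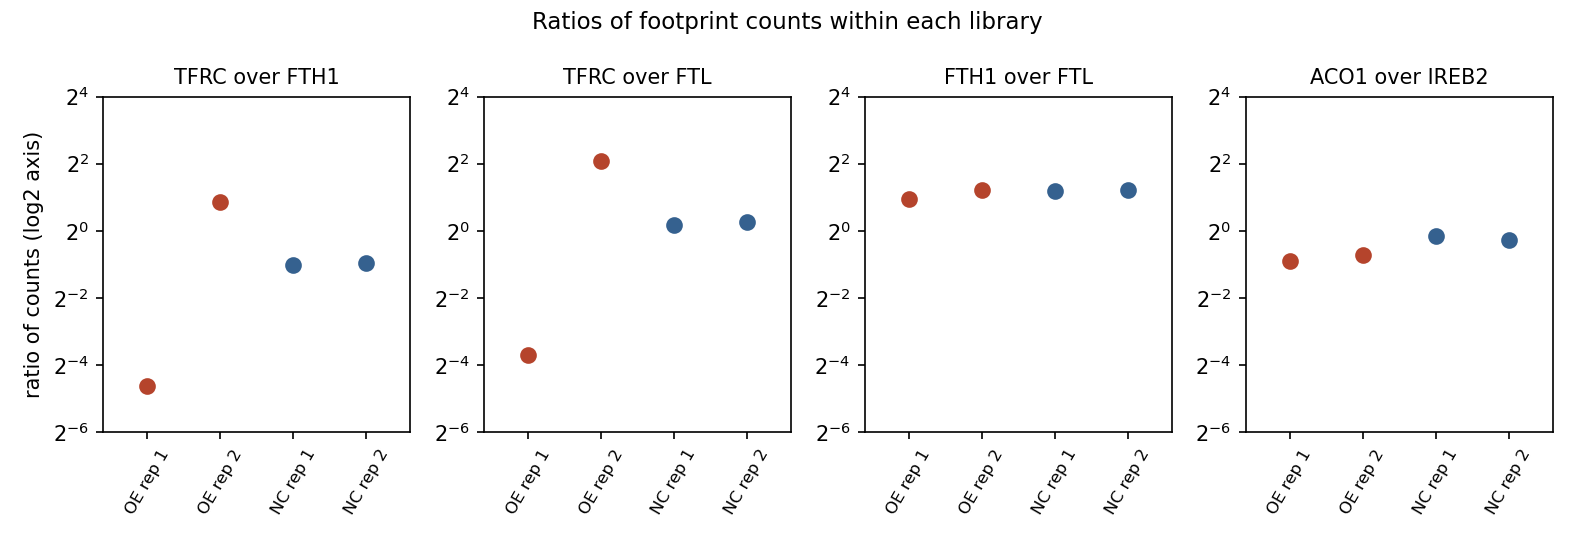
Ratios of footprint counts within each library on a log2 axis, with OE libraries in red on the left and NC libraries in blue on the right. TFRC over FTH1 spans 0.0406 to 1.81 in OE against 0.497 and 0.514 in NC, while FTH1 over FTL stays between 1.92 and 2.33 in all 4 libraries.

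SLC11A2 (ENSG00000110911), the transporter that moves ferrous iron across the apical and endosomal membranes, did not follow TFRC. It had 30.3 and 21.6 CPM in OE, against 20.7 and 25.9 CPM in NC. OE replicate 1 was the highest library, and OE replicate 2 lay between the NC libraries. OE over NC was 0.15 on the log2 scale (SE 0.33; edgeR adjusted p = 0.904). This value was -0.11 without OE replicate 1. Transcripts of SLC11A2 end in forms with and without the hairpin, and the counts do not separate them. By pattern over the 4 libraries it was at rank 6145 of 8978 genes in likeness to TFRC, at a distance of 1.86.

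The messages of the iron-sensing proteins differed less between libraries than those of FTH1, FTL and TFRC. ACO1 (ENSG00000122729), which is an aconitase when it carries an iron-sulfur cluster and binds the hairpin when it does not, had 29.2 and 56.2 CPM in OE, against 60.3 and 65.8 CPM in NC. It was the one gene of the 10 with both OE libraries below both NC libraries. Over all genes 20.4% had that order. Its log2 fold change was -0.56 (SE 0.41; edgeR adjusted p = 0.741), and leaving out OE replicate 1 gave -0.16 (edgeR adjusted p = 0.489). Leaving out OE replicate 2 gave -1.15 (edgeR adjusted p = 1.54e-06).

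IREB2 (ENSG00000136381), the regulatory protein that is destroyed when iron is plentiful, had 54.6 and 92.7 CPM in OE, against 67.3 and 79.3 CPM in NC. The NC values lay between those of OE. The log2 fold change was 0.0083 (SE 0.39; edgeR adjusted p = 0.997). It was 0.34 (edgeR adjusted p = 0.102) without OE replicate 1 and -0.46 (edgeR adjusted p = 0.0187) without OE replicate 2. Scaled by library totals alone, both OE libraries lay above both NC libraries, as they did for 30.2% of all genes. The IREB2 values were then 74.1 and 84.1 CPM in OE against 59.8 and 72.3 CPM in NC. The ratio of ACO1 to IREB2 counts was 0.535 and 0.606 in OE and 0.895 and 0.830 in NC, lower in both OE libraries. This ratio was picked after its values were seen.

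FBXL5 (ENSG00000118564), the iron-binding ubiquitin ligase subunit that marks IREB2 for destruction, had 28.0 and 31.1 CPM in OE, against 19.2 and 22.6 CPM in NC. Both OE libraries lay above both NC libraries, an order shown by 19.9% of all genes, and no other of the 10 had it with the scaling used here. Averages were 29.5 ± 2.18 CPM in OE and 20.9 ± 2.45 CPM in NC (SD, n = 2 each). On the log2 scale OE exceeded NC by 0.50 (SE 0.29; edgeR adjusted p = 0.734). Over all the fits tried it stayed positive, between 0.37 and 0.81. It passed without OE replicate 1 (0.58, adjusted p = 0.00885) and in none of the other edgeR, limma or DESeq2 fits.

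The iron chaperones that hand iron to ferritin were lower in OE replicate 1 and near NC in OE replicate 2. PCBP1 (ENSG00000169564) had 134 and 359.6 CPM in OE, against 337 and 329 CPM in NC. PCBP2 (ENSG00000197111) had 464 and 825 CPM in OE, against 866 and 779 CPM in NC. The groups overlapped for both. OE over NC was -0.43 (SE 0.59; edgeR adjusted p = 0.844) for PCBP1 and -0.35 (SE 0.54; edgeR adjusted p = 0.863) for PCBP2, in log2. In OE replicate 1 the differences were -1.32 and -0.82 for PCBP1 and PCBP2, at percentiles 33.0 and 67.4 of those 1256 genes. Without OE replicate 2 the log2 fold changes were -1.36 (edgeR adjusted p = 3.92e-09) and -0.87 (edgeR adjusted p = 5.73e-06), and without OE replicate 1 they were 0.11 and 0.0056 (edgeR adjusted p = 0.579 and 0.981). Both proteins also bind C-rich RNA. PCBP1 is an intronless copy of a PCBP2 message, and these were the 2 genes of the 10 with fractional estimated counts. How reads that match both were divided is not given in the sources used here, so their separate values are uncertain.

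NCOA4 (ENSG00000266412), the receptor that carries ferritin to the lysosome for release of its iron, resembled TFRC in its order of libraries. It had 102 and 297 CPM in OE replicates 1 and 2, against 212 and 223 CPM in NC. OE replicate 1 lay below both NC libraries and OE replicate 2 above both. In OE replicate 1 its log2 difference of -1.09 from the NC mean was at percentile 48.7 of the genes with the most NC footprints, whose median was -1.08. In OE replicate 2 the difference of 0.45 was at percentile 81.0. By pattern over all libraries NCOA4 was at rank 184 of 8978 genes in likeness to TFRC, at a distance of 0.394. In log2, OE over NC was -0.13 (SE 0.59; edgeR adjusted p = 0.959), and 0.057 when scaled by library totals alone. Without OE replicate 1 it was 0.45 (edgeR adjusted p = 0.00917), and without OE replicate 2 it was -1.14 (edgeR adjusted p = 1.25e-07). Added after the data were seen, the ratio of NCOA4 to FTH1 counts was 0.0177 and 0.554 in OE, against 0.193 and 0.172 in NC.

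Over the 10 genes, 0 passed edgeR's quasi-likelihood test at an adjusted p below 0.05, as did 0 (0%) of all 12560 genes. At an unadjusted p below 0.05 there were 0 of the 10 and 691 (5.5%) of all genes. DESeq2 called 25 genes (0.182%) and edgeR's likelihood ratio test 29 (0.231%), with 0 of the 10 in either. The median log2 fold change was -0.00037 for the 10 genes and 0.09 for all genes tested. The groups overlapped for 8 of the 10 genes, against 59.7% of all genes. The OE libraries lay on opposite sides of the NC mean for 8 of the 10 genes, against 49.3% of all genes, the exceptions being ACO1 and FBXL5. In OE replicate 1, 4 of the 10 were above both NC libraries and 6 below both (46.7% and 45.5% of all genes). In OE replicate 2, 5 were above both and 3 below both (42.8% and 42.5% of all genes). Set against NC alone, OE replicate 1 gave calls for 8 of the 10 genes and for 60.9% of all genes, and OE replicate 2 for 5 of the 10 and 34.1% of all genes.

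Of 7 other messages with an iron-responsive element 5 were tested, and 3 were lower in both OE libraries, or 1 when scaled by library totals alone. Over all genes 20.4% were lower in both, or 11.8% by library totals. The median log2 difference of the 5 from the NC mean was -0.08 in the first OE library and -0.19 in the second. This median takes no account of where in each message the hairpin lies. CDC14A, a phosphatase, had its OE values on the same sides of NC as ferritin, at 7.61 and 4.93 CPM in OE and 5.46 and 5.45 CPM in NC. Its exact Poisson interval in the second OE library, 4.05 to 5.95 CPM, covers both NC values, so its place below NC there is not resolved. Where the hairpin of CDC14A lies was not examined here, so this order cannot be read as regulation like that of ferritin. EPAS1, the hypoxia factor with a leader hairpin, had 32.1 and 29.6 CPM in OE and 34.7 and 33.2 CPM in NC. Its exact Poisson interval in OE replicate 1, 28.7 to 35.7 CPM, covers both NC values, so its place below NC there is not resolved. CDC42BPA, a kinase of the cytoskeleton, had 136 and 51.3 CPM in OE and 50.6 and 60.9 CPM in NC, and PFN2, a profilin, had 127 and 146 CPM in OE and 163 and 172 CPM in NC. Scaled by library totals alone, EPAS1 had 43.5 and 26.9 CPM in OE against 30.8 and 30.3 CPM in NC, and PFN2 had 172.6 and 132.5 CPM in OE against 144.8 and 157.0 CPM in NC. With that scaling both overlapped, and their OE libraries lay on the same sides of NC as those of ferritin. That scaling raises all values of OE replicate 1 by 0.59 in log2 against the NC mean. The share of all genes with this order was not computed, so it cannot be read as regulation like that of ferritin. ALAS2 and the iron exporter SLC40A1 had 0 counts in all 4 libraries, so neither could be set beside ferritin.

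Genes of iron entry, export and release were split. Of 24 listed, 13 were tested, with 4 higher and 5 lower in both OE libraries, or 4 and 2 by library totals. Among all genes 19.9% were higher and 20.4% lower, or 30.2% and 11.8% by library totals. SLC39A14, a transporter of iron not bound to transferrin, had 141 and 279 CPM in OE, against 368 and 366 CPM in NC. The related zinc and iron transporter SLC39A13 had 24.7 and 14.2 CPM in OE, against 11.2 and 9.85 CPM in NC. HFE, which binds the transferrin receptor, had 2.09 and 3.03 CPM in OE, against 4.12 and 5.33 CPM in NC. For HFE the exact Poisson intervals of OE replicate 2 (2.35 to 3.85 CPM) and NC replicate 1 (3.27 to 5.13 CPM) meet. Its place below NC in that OE library is therefore not resolved. The edgeR adjusted p was 0.734 for each of the 3. Of the 11 genes not tested, 7 had 0 counts throughout, among them the hormone hepcidin (HAMP).

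Of 15 genes of ferritin turnover and of regulatory protein control, 13 were tested. In both OE libraries 2 were higher and 4 lower, or 3 and 4 by library totals. The shares of all genes were 19.9% and 20.4%, or 30.2% and 11.8% by library totals. TAX1BP1, an autophagy receptor that takes part in ferritin delivery to lysosomes, had 93.9 and 98.2 CPM in OE, against 167 and 184 CPM in NC, a log2 fold change of -0.87 (SE 0.33; edgeR adjusted p = 0.734). The cluster chaperones BOLA2 and BOLA2B had -0.62 and -0.66, but they are near-identical copies whose reads cannot be assigned with certainty. HERC2, the ubiquitin ligase that marks NCOA4, was chosen after its values were seen. It had 210.0 and 63.8 CPM in OE against 87.4 and 108 CPM in NC, the same order of libraries as ferritin. Its OE libraries were in the reverse order of those of NCOA4.

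All 22 genes of heme synthesis, transport and breakdown were tested, with 3 higher and 5 lower in both OE libraries, or 6 and 4 by library totals. The shares of all genes were 19.9% and 20.4%, or 30.2% and 11.8% by library totals. TMEM14C, which carries heme precursors through the inner mitochondrial membrane, had 137 and 257 CPM in OE, against 434 and 426 CPM in NC. The glycine carrier SLC25A38 and ALAD, the second enzyme of the pathway, were higher by 0.61 (SE 0.29) and 0.58 (SE 0.30) in log2, in both OE libraries. HMOX1, the enzyme that breaks down heme, was singled out after its values were seen, at 12.9 and 27.7 CPM in OE and 19.9 and 16.2 CPM in NC. None of these reached an edgeR adjusted p below 0.734.

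The smallest p-value on any of the lists fell to a gene of iron-sulfur cluster assembly. Of 22 mitochondrial genes, all tested, 5 were higher and 4 lower in both OE libraries, or 8 and 2 when scaled by library totals alone. Among all genes the shares were 19.9% and 20.4%, or 30.2% and 11.8% by library totals. FDX2, the ferredoxin that gives electrons to cluster assembly, had 27.4 and 21.9 CPM in OE, against 8.96 and 9.26 CPM in NC. Its log2 fold change was 1.44 (SE 0.31; edgeR unadjusted p = 0.00565, adjusted p = 0.734). For FDX2, 2 rows carry this symbol, and the larger was used. The iron importer SLC25A28 (mitoferrin-2) had 32.9 and 19.0 CPM in OE and 13.3 and 13.1 CPM in NC, and the steroid-pathway ferredoxin FDX1 had 38.6 and 30.1 CPM in OE and 19.5 and 21.5 CPM in NC. SLC25A37 (mitoferrin-1), chosen after its values were seen, was uneven at 63.4 and 12.5 CPM in OE, against 11.2 and 13.4 CPM in NC.

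The cytosolic assembly genes had no member that was lower in both OE libraries. Of 9 genes, 4 were higher in both and 5 overlapped, or 7 and 2 when scaled by library totals alone. All 9 were above the NC mean in OE replicate 2, as were 50.1% of all genes. In OE replicate 1, 4 of the 9 were above it, against 50.8% of all genes. The list's medians were -0.18 for OE replicate 1 and 0.74 for the other. NDOR1, a reductase that supplies electrons, had 22.1 and 16.6 CPM in OE, against 9.99 and 6.86 CPM in NC. CIAO3 and CIAO2A, which pass clusters to their target proteins, differed by 0.91 (SE 0.35) and 0.76 (SE 0.30) in log2. The edgeR adjusted p was 0.734 for all 3. Across the 6 lists together, 18 of 84 tested genes were higher and 21 lower in both OE libraries, or 28 and 13 when scaled by library totals alone. For all genes the shares were 19.9% and 20.4%, and 30.2% and 11.8% with library totals.

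**Figure D4:**
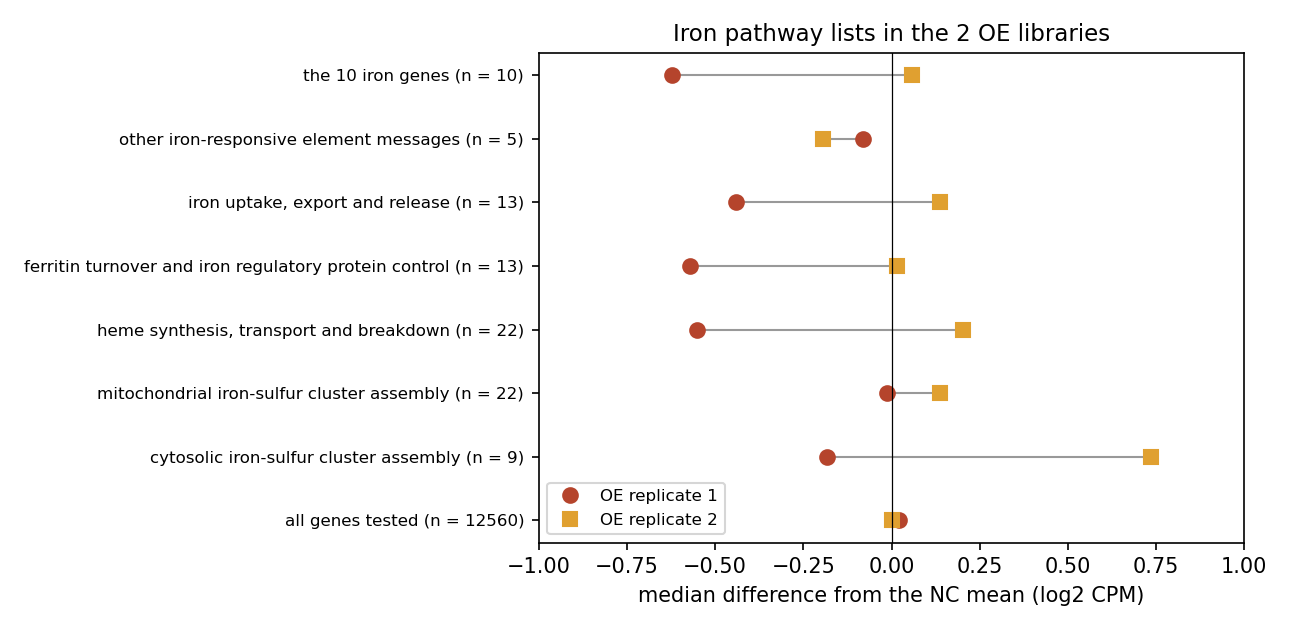
Median difference from the NC mean, in log2 CPM, of the 10 iron genes, the 6 other iron lists and all tested genes, with a circle for OE replicate 1 and a square for OE replicate 2. The number of tested genes stands in brackets; the cytosolic iron-sulfur list has the highest square, at 0.74, and the 10 iron genes the lowest circle, at -0.62.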

How the data were processed

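Each library has its own file, deposited by the authors, that gives estimated counts for Ensembl genes, per the file headers. Between 13.8% and 14.7% of values held a fraction, so counts were rounded before testing. RSEM and StringTie, the aligners HISAT2 and Bowtie2, the trimmer fastp and the build hg18 appear in the submitters' processing notes; their versions, the annotation, strand and multi-read settings were not given in the sources used here. Groups and replicate numbers came from the sample titles.

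Low genes were removed with filterByExpr (at least 10 counts, total at least 15, proportion 0.7) and libraries scaled by TMM (factors 1.36 and 0.907 for OE, 0.889 and 0.912 for NC). OE was compared with NC in R 4.3.3 by edgeR 4.0.16 (quasi-likelihood test, group as the only term, Benjamini-Hochberg over all genes, threshold 0.05). The SE is the log2 fold change over the square root of F. CPM uses the TMM-scaled totals, and log2 CPM a prior count of 2. A count of 0 allows up to 3 counts, between 0.136 and 0.286 CPM. Alternatives used DESeq2 1.42.0, limma 3.58.1, other scalings and filters, a replicate block and each library left out. The steps were tested on simulated data. Coding lengths were not used here, so the genes with the most NC footprints were taken by CPM, not per length.

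The genes and lists were chosen with earlier results of these data known. Named genes were the 10, METTL14, up to 3 genes of each list with the smallest p, and the 3 genes most like FTL, FTH1 and TFRC in pattern, with exceptions marked; a named gene's result is not reported here. Sequences are from RefSeq tables (GRCh38.p14), a build other than the one named for the counts, and were matched by symbol (all 10 symbols were found in the gene table).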

Additional observations from a re-analysis of the deposited data

How the results depend on the processing

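With all 4 libraries, 0 of the 10 genes passed with DESeq2, edgeR's likelihood ratio test, RLE scaling, library totals, no filter, a filter of 50 counts in 2 libraries, limma with quality weights, the replicate block or summed rows of a symbol. Over all genes 0 passed by edgeR's quasi-likelihood test, against 25 with DESeq2, 29 with the likelihood ratio test and 24 with the replicate block, which gave FTH1 0.55 in place of 1.39, FTL 0.68 in place of 1.63 and METTL14 2.13, and called 0 of the 10. METTL14 passed with DESeq2 (2.51, adjusted p = 0.0485); in the other fits of all 4 libraries its adjusted p ran from 0.266 to 0.873. Values close to 0 changed sign: TFRC was 0.0063 with DESeq2, 0.0053 with RLE scaling and 0.13 with library totals, NCOA4 0.057 with library totals, and IREB2 -0.0094 with no filter, -0.092 with limma and -0.037 with the replicate block. Larger moves came with limma, at -0.58 for TFRC, -0.50 for NCOA4, -0.78 for PCBP1, 0.94 for FTH1 and 1.10 for FTL. Its median for the 10 genes was -0.30. The replicate block gave -0.34 for TFRC. Library totals moved the median of all genes by 0.31 and all values of OE replicate 1 by 0.59 (log2).

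Leaving out 1 library gave 7 to 7969 genes called (4329 without OE replicate 1, 7969 without OE replicate 2) and 0 to 8 of the 10, a median for the 10 of -0.67 to 0.12, and for METTL14 0.99 to 3.24. The ranges were -1.16 to 2.22 for FTH1, -1.18 to 2.49 for FTL, -1.42 to 0.68 for TFRC, -0.11 to 0.34 for SLC11A2, -0.46 to 0.34 for IREB2, -1.36 to 0.11 for PCBP1, -0.87 to 0.0056 for PCBP2 and -1.14 to 0.45 for NCOA4. The log2 ratio ran from -3.64 to 1.85 for TFRC to FTH1, and from -0.26 to 0.018 for FTH1 to FTL. The cause of the difference between the OE libraries was not tested. Deviations of same-numbered libraries from their group means had a correlation of -0.097 over genes. With 2 libraries a group this is a single value, and it cannot decide whether the numbers mark pairs. The main fit did not take the numbers as pairs, and the replicate block did. Adding ferritin pseudogene rows could not change either ratio, so it does not check for pseudogene reads. No symbol starting with FTH1P or FTLP was among the counted genes, and the related FTHL17 held 0 counts. Footprint density per coding length was not run.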

Other observations

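The search for the iron-responsive hairpin returned 8 RefSeq windows, of which 4 belong to genes tested here: FTL, CEP43, CTBP1 and F10. CEP43, a centrosomal protein, had 45.4 and 39.8 CPM in OE, against 31.7 and 30.5 CPM in NC. CTBP1, a transcriptional corepressor, had 94.2 and 104 CPM in OE, against 84.6 and 74.2 CPM in NC. F10, a coagulation factor, had 23.8 and 19.1 CPM in OE, against 44.2 and 40.2 CPM in NC, a log2 fold change of -0.98 (SE 0.30; edgeR's quasi-likelihood test, Benjamini-Hochberg adjusted p = 0.734). None of the 3 had the FTL order of libraries, with 1 OE library far above and the other below NC. A match of letters does not show that an iron regulatory protein binds there.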
